A study of Mus musculus with 27 samples.

Results

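Cardiac muscle genes, 10 of the 48795 genes in the gene tables, were followed through 27 RNA-seq libraries that trace mouse embryonic stem cells towards gonad-like cells. They encode 4 parts of the thick filament (*Myh6*, *Myh7*, *Myl3*, *Myl7*), 2 of the thin filament (*Actc1*, *Tnnt2*), 2 proteins of the Z-disc and of sarcomere assembly (*Ldb3*, *Myo18b*), a calcium-binding protein of the sarcoplasmic reticulum (*Hrc*) and the pacemaker channel *Hcn4*. The genes were selected on measured values, because several of them were lower in IM4 than in IM3, the pair of conditions that differ in the GSK3 inhibitor CHIR99021. The levels in IM3 and IM4 are therefore a description with no test, and tests of these 10 genes come only from comparisons that hold neither group. The 10 genes and the further gene lists used below were chosen with earlier results of these data known.

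The libraries form 9 groups of 3 (ESC, EpiSC, M, the 5 conditions IM1 to IM5, and iSLC), with 35923040 to 84876603 expected read counts each. All cells descend from clone 7, a single XY stem cell clone of an F1 C57BL/6 x CBA cross that carries TESCO-CFP, a fluorescent reporter for Sertoli cells, and R26-rtTA, which allows induction by doxycycline. ESC are the undifferentiated cells. EpiSC had 60 h in activin A (20 ng/ml), bFGF (12 ng/ml) and 1% KSR, and M had a further 36 h in bFGF (20 ng/ml), the PI3K inhibitor LY294002 (10 µM) and BMP4 (10 ng/ml). The IM conditions lasted 3.5 days from M, all with bFGF at 5 ng/ml and BMP4 at 20 ng/ml, and retinoic acid (100 nM) was present in IM2, IM3, IM4 and IM5. Activin A (10 ng/ml) was present in IM2 and IM5, and CHIR99021 (0.3 µM) in IM4 and IM5. IM5 therefore differed from IM2 in CHIR99021 with Activin A in both, IM4 from IM3 in CHIR99021 without Activin A, and IM2 from IM1 in retinoic acid and Activin A together. The iSLC were IM3 cells that received doxycycline-inducible *Nr5a1* and *Dmrt1* from lentiviruses and were sorted for CFP 4 days after induction. With doxycycline they were moved to a different medium, which held EGF, FSH, FGF9, prostaglandin D2, testosterone and Activin A. The iSLC therefore differed from IM3 in medium and time as well as in the introduced factors and sorting. The libraries of a group are described by the study as biological replicates, without saying whether they were separate differentiations.

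The sarcomere is the contractile unit of striated muscle, in which myosin thick filaments pull on actin thin filaments that are anchored at the Z-disc. The alpha myosin heavy chain *Myh6* and the light chain *Myl7* mark the early heart tube and later the atria, *Myh7* and *Myl3* are shared with ventricle and slow skeletal muscle, and *Hcn4* carries the pacemaker current and marks first heart field progenitors. Cardiac mesoderm forms from lateral plate mesoderm near the intermediate mesoderm that gives rise to the gonad, and Wnt signaling, which CHIR99021 activates, is known to promote mesoderm early and to restrain heart muscle formation later.

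The bases around the start sites show one feature that the selection did not use. RefSeq regions of 300 bases (250 before the start site and 50 after it, GRCm38.p6) were matched by symbol for 9 of the 10 genes, all but *Myo18b*. A CArG box, the binding motif of serum response factor, a regulator of muscle genes, was found in 4 of these 9 genes, *Myl3*, *Myl7*, *Actc1* and *Ldb3*, and in 1.63% of all 32851 such regions. Those 4 regions are shown with that of *Myh6*, which lacks the box and had the largest fold change with CHIR99021. They lie at chr9:110763428-110763727 on the plus strand and, on the minus strand, at chr11:5898733-5899032, chr2:114052826-114053125, chr14:34588632-34588931 and chr14:54966558-54966857. Each is written 5′ to 3′ along the gene, and capitals mark CArG boxes, TATAAA and GATAA on either strand.
Myl3: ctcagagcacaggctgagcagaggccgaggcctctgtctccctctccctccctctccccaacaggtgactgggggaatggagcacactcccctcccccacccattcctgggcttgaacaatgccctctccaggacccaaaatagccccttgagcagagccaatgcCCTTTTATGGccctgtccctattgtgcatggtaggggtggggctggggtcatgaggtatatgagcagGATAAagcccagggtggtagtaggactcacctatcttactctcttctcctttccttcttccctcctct
Myl7: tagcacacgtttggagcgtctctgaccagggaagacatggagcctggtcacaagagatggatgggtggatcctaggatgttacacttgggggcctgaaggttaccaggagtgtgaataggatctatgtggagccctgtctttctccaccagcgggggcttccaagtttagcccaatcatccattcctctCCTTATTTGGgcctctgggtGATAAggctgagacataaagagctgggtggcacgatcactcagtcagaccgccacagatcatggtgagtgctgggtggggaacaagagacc
Actc1: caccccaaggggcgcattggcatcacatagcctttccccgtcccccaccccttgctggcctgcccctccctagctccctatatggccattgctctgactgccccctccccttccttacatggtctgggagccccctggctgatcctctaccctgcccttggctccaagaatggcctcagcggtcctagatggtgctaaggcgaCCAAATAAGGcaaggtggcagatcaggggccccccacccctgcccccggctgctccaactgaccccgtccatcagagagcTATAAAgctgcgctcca
Ldb3: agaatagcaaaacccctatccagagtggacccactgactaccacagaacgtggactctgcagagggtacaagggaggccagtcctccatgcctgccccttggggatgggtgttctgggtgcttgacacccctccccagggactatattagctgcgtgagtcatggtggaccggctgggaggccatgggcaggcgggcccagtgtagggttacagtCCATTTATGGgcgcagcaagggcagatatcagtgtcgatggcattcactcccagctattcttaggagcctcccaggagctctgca
Myh6: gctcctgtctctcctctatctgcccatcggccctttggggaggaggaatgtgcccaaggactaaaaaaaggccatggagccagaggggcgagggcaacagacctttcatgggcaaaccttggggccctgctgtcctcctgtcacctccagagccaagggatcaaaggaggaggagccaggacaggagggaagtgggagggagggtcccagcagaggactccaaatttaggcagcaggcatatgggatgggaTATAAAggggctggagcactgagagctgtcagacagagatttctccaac
The box begins 85 bases before the start site in *Myl3*, 61 before it in *Myl7*, 47 in *Actc1* and 35 in *Ldb3*. GATAA, the core of sites for GATA factors, was present in 4 of the 9 genes (*Myl3*, *Myl7*, *Tnnt2* and *Hrc*) and in 25.4% of all regions. CTTTGA, a core of TCF/LEF sites, was present in *Myh6* alone and in 16% of all regions, while the MEF2 box (0.557% of all regions) and the T-box core GGTGTG (19%) were in none of the 9. A gene was counted if any of its regions held the motif, while the shares are per region. *Myh7*, *Tnnt2* and *Ldb3* had 2 regions each, so they had more room for a match. These counts describe letters in a short window and say nothing of binding.

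Among the 5 IM conditions, 9 of the 10 genes had their highest mean TPM (transcript abundance corrected for gene length and scaled to a fixed library total) in IM3, and 8 had their lowest in IM5. *Myo18b* was the exception at the top, with its highest IM level in IM1, and *Tnnt2* and *Myo18b* had their lowest in IM4 and IM2. Choosing genes that were lower in IM4 than in IM3 favors a peak in IM3. These counts are therefore description, with no share of all genes set beside them. The most abundant of the 10 by mean TPM in IM3 and IM4 were the atrial light chain *Myl7* and the cardiac actin *Actc1*, whereas *Tnnt2* was the most abundant in IM2, IM5 and iSLC. *Myl7* stood at 190.79, 90.73 and 140.47 TPM in the 3 IM3 libraries, at 38.98, 46.52 and 60.49 in IM4, at 22.33, 41.42 and 33.53 in IM2 and at 6.80, 6.57 and 3.48 in IM5. *Actc1* stood at 166.04, 78.57 and 123.42 TPM in IM3, at 37.13, 39.41 and 45.35 in IM4, at 33.16, 43.11 and 48.38 in IM2 and at 12.82, 12.00 and 10.65 in IM5. For both genes every IM3 library lay above every library of the other groups, and every IM5 library below every library of IM1 to IM4. In whole-culture RNA, fewer cardiac cells and less RNA of these genes per cell cannot be told apart.

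**Figure D1:**
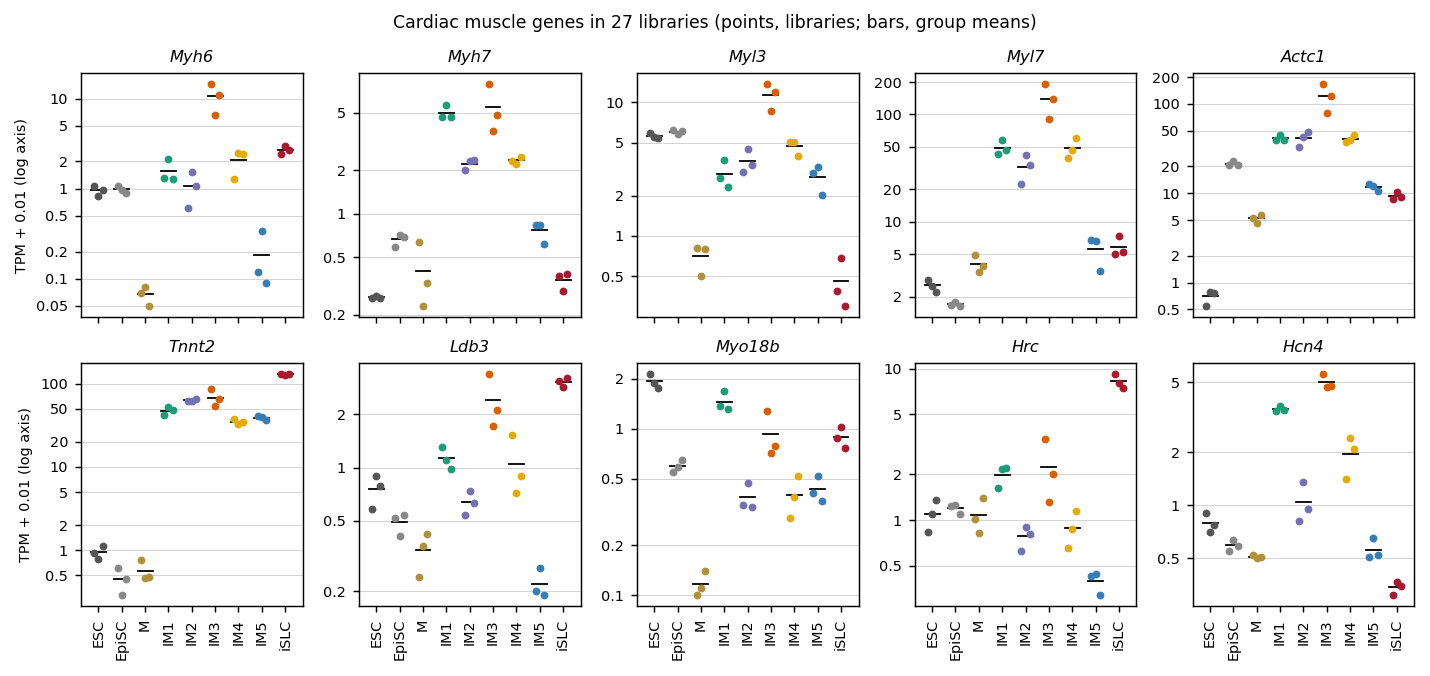
TPM of the 10 cardiac muscle genes in each library (points) with group means (bars), on a log axis after adding 0.01. *Myl7*, *Actc1* and *Myh6* peaked in IM3, whereas *Tnnt2* and *Hrc* were highest in iSLC.

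The alpha heavy chain *Myh6* was at 14.37, 6.59 and 11 TPM in IM3, at 1.26, 2.47 and 2.40 in IM4, at 0.60, 1.52 and 1.06 in IM2 and at 0.11, 0.33 and 0.08 in IM5. *Myh7*, the beta heavy chain, was at 7.87, 3.73 and 4.85 TPM in IM3, 2.32, 2.21 and 2.45 in IM4, 1.99, 2.29 and 2.34 in IM2 and 0.83, 0.83 and 0.61 in IM5. The order of *Myh7* levels set IM3 and IM1 at the top, and these neighbors overlapped, as did IM4 and IM2. *Hcn4* ranked IM3 (5.57, 4.67 and 4.74 TPM), IM1 (3.41, 3.67 and 3.44), IM4 (1.40, 2.39 and 2.07), IM2 (0.81, 1.35 and 0.94) and IM5 (0.50, 0.64 and 0.51), with no overlap between any of these neighbors. *Tnnt2*, the troponin that ties tropomyosin to the calcium sensor, was high in all IM conditions, from 32.90 to 85.22 TPM, against 0.28 to 1.13 in ESC, EpiSC and M. *Tnnt2* did not share the peak of *Actc1* in IM3, where its libraries overlapped those of IM2.

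Within IM3 the 3 libraries differed, and the 10 genes differed together. Replicate 1 held the highest normalized read count of the group for 10 of 10 genes, against 31.1% of all genes tested, and replicate 2 the lowest for 10 of 10, against 37.3%. The highest over the lowest library ranged from 1.19-fold for *Hcn4* to 2.6-fold for *Hrc* in TPM. Summed over the 10 genes, the IM3 libraries had 491.6, 249.9 and 366.4 TPM, and the 3 IM4 libraries 125.6, 132.9 and 154.1. Replicate 1 of IM3 also had the highest sums of 21 skeletal muscle genes (52.6, 32.8 and 21.8 TPM), 9 smooth muscle genes (1646, 1364 and 1416 TPM) and 8 endothelial genes (181.9, 159.3 and 152.8 TPM). It had the lowest sums of 6 adult red blood cell genes (21.3, 74.4 and 53.5 TPM) and 5 primitive ones (97.1, 116.4 and 119.7 TPM), while 6 mesothelial genes summed to 950.8, 987.3 and 922.3 TPM. The part of these in the spread was not tested.

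With CHIR99021 and without Activin A (IM4 against IM3), all 10 had a negative log2 fold change, against 45.3% of all genes. This pair selected the genes, so the selection favors that direction. *Myh6* had the largest log2 fold change, -2.17 (SE 0.27), and *Tnnt2* the smallest, -0.92 (SE 0.11). Between them lay *Actc1* (-1.56), *Myl7* (-1.51), *Hrc* (-1.35), *Hcn4* (-1.31), *Myo18b* (-1.29), *Myl3* (-1.26), *Myh7* (-1.21) and *Ldb3* (-1.18). The median of the 10 was -1.30, beside 0.01 for all genes tested. Without replicate 1 of IM3 the values ranged from -0.72 for *Tnnt2* to -1.85 for *Myh6*.

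Genes of a wider list, which the rule of selection did not use, were tested in this comparison. The list was drawn up with earlier results of these data known, so it is not independent of them. Of 86 further cardiac genes 83 were tested, and 3 were DE (adjusted p at most 0.01, at least 2-fold, mean normalized read count of at least 100), all lower in IM4, beside 0.101% of all 20839 genes. These were *Tbx18*, a T-box factor of the sinus horn and epicardium (log2 fold change -1.17, SE 0.097, edgeR adjusted p = 6.75e-08), the atrial light chain *Myl4* (-1.01, SE 0.15, adjusted p = 0.000197) and the giant sarcomere spring *Ttn* (-1.10, SE 0.23, adjusted p = 0.00624). *Tbx18* fell from 12.01, 13.11 and 11.69 TPM in IM3 to 5.08, 5.08 and 5.78 in IM4, with no overlap. *Myl4* and *Ttn* were no longer DE without replicate 1 of IM3 or replicate 1 of IM4, which left *Tbx18* alone, and *Ttn* was lost without any single library of IM4 and without replicate 3 of IM3. By size alone the direction was wider, since 67 of the 83 had a negative log2 fold change, against 45.3% of all genes, with a median of -0.37. By adjusted p alone 14 of the 83 were lower, beside 0.811% of all genes, and 1 was higher, beside 0.221%.

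With Activin A present (IM5 against IM2), a pair that shares no library with IM4 and IM3, 4 of the 10 cardiac muscle genes were DE and all 4 were lower with CHIR99021, beside 0.192% of all genes DE lower. *Myh6* fell 7-fold (log2 fold change -2.81, SE 0.40, edgeR adjusted p = 3.15e-05) and *Myl7* fell 5.45-fold (-2.45, SE 0.27, adjusted p = 8.22e-07). *Actc1* fell 3.36-fold (-1.75, SE 0.17, adjusted p = 1.98e-07) and *Myh7* fell 2.6-fold (-1.38, SE 0.21, adjusted p = 5.26e-05). The same 4 genes stayed DE when any one library was left out. Of the 10 genes, 9 had a negative log2 fold change, against 48.8% of all genes. All 10 were chosen with earlier results of these data known, which these tests do not take into account.

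A further 3 genes passed the adjusted p but were not DE, *Tnnt2* and *Hcn4* for their fold and *Ldb3* for its count. *Tnnt2* was at 62.58, 61.81 and 65.98 TPM in IM2 and at 40.74, 39.39 and 36.58 in IM5 (log2 fold change -0.66, adjusted p = 0.000223). *Ldb3*, which links alpha-actinin to signaling proteins at the Z-disc, was at 0.53, 0.73 and 0.62 TPM in IM2 and at 0.19, 0.26 and 0.18 in IM5 (-1.49, adjusted p = 0.00014). *Hcn4* differed by -0.86 (adjusted p = 0.00235), and both *Ldb3* and *Hcn4* became DE when replicate 1 of IM2 was left out. *Hrc* (-0.87, adjusted p = 0.0743), *Myl3* (-0.30, adjusted p = 0.44) and *Myo18b* (0.09, adjusted p = 0.862) did not pass. The median of the 10 genes was -1.12, against 0.001 for all genes.

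**Figure D2:**
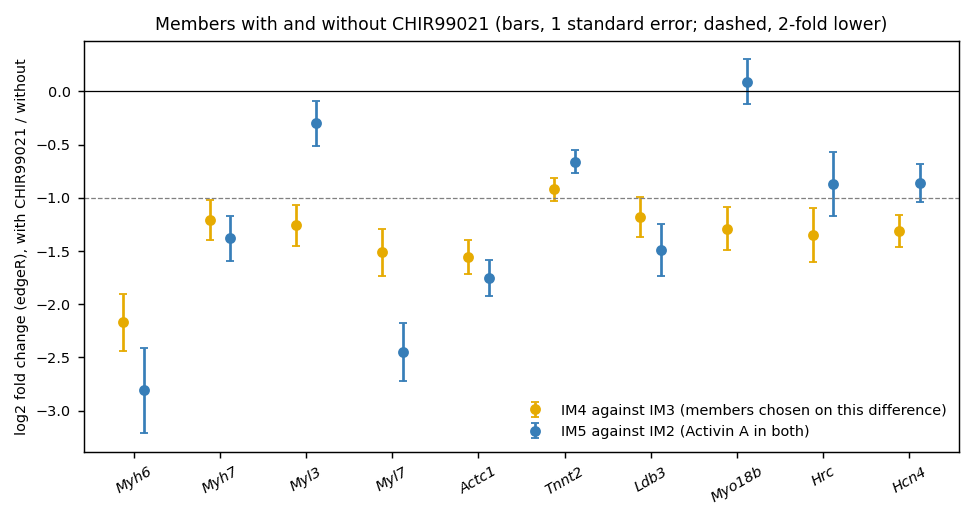
Log2 fold change with its standard error for each gene, with CHIR99021 over without it, in the absence of Activin A (IM4 against IM3, the pair used for selection) and in its presence (IM5 against IM2). *Myh6*, *Myl7*, *Actc1*, *Myh7* and *Ldb3* lie under the dashed 2-fold line in both pairs, and *Myl3* and *Myo18b* lie near 0 in IM5 against IM2.

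In the same pair 7 of the 83 further cardiac genes were DE, all lower in IM5, beside 0.192% of all genes DE lower. They were *Myl4* (-1.84), *Tbx18* (-1.72), the myosin chaperone *Unc45b* (-1.27), *Ttn* (-1.12), *Tbx5* (-1.10), *Gata5* (-1.05) and the methyltransferase *Smyd1* (-1.03), which acts in myofibril assembly. *Gata5* and *Smyd1* are outside the rule for naming genes and were added after their values were seen. *Myl4* was at 24.72, 34.66 and 32.73 TPM in IM2 and at 10.10, 7.78 and 6.80 in IM5. *Tbx18* was at 2.37, 2.42 and 2.63 TPM in IM2 and at 0.62, 0.82 and 0.73 in IM5. *Ttn* lost its call without any one of replicates 1 and 3 of IM5 and replicates 2 and 3 of IM2, and when replicate number was fitted as a block. *Smyd1* and *Gata5* lay close to the 2-fold limit and were each lost in 2 of the 6 fits that left out a library.

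The effect of CHIR99021 on the further cardiac genes was also compared between the pair with Activin A and the pair without it. *Tbx5*, a T-box factor of the first heart field, was the only one of the 83 that was DE in this interaction, beside 0.0336% of all genes. *Cryab*, a small heat shock protein, passed the adjusted p without reaching 2-fold (0.93, adjusted p = 9.14e-05) and was named after its value was seen. *Tbx5* was at 23.72, 27.42 and 20.87 TPM in IM3 and at 24.07, 23.73 and 22.16 in IM4, where the groups overlapped, and at 9.12, 10.58 and 9.75 in IM2 and 3.51, 4.28 and 5.26 in IM5. Without replicate 1 of IM5 or replicate 3 of IM3 *Tbx5* fell just short of the 2-fold minimum (-1.0 in both fits). The interaction was not tested for the 10 selected genes, because IM3 and IM4 enter it.

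None of the other 7 heart factors followed in every comparison was DE in either CHIR99021 pair. *Gata4*, at a mean of 339.7 TPM in IM3, differed by -0.32 in IM4 (adjusted p = 0.00948) and by -0.50 in IM5 against IM2 (adjusted p = 2.74e-05). *Tbx20* differed by -0.19 (adjusted p = 0.0691) and -0.53 (adjusted p = 3.72e-07) in the same pairs, and *Mef2c* by -0.32 (adjusted p = 0.0244) and -0.42 (adjusted p = 0.00096). *Hand2* did not pass in either pair (0.11 and 0.28), and *Isl1*, a factor of second heart field progenitors, passed only in IM5 against IM2, at 0.57 (adjusted p = 3.74e-05). *Nkx2-5*, the homeobox factor of committed heart cells, had mean levels from 0.11 to 2.86 TPM over the groups, and *Myocd*, a coactivator of serum response factor, stayed at or below a mean of 1.12 TPM. Neither passed in either pair, with -1.26 and 0.04 for *Nkx2-5* and -0.91 and -0.71 for *Myocd*.

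**Figure D3:**
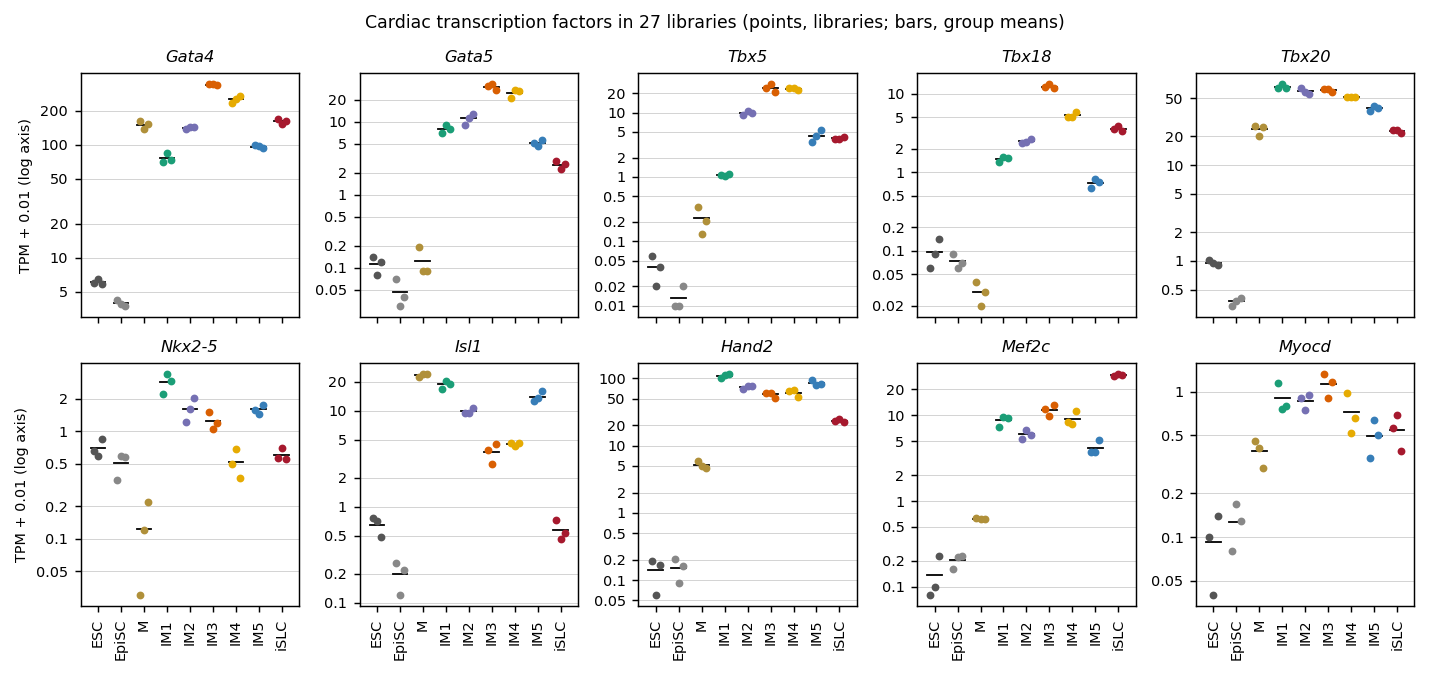
TPM of 10 cardiac transcription factors in each library (points) with group means (bars), on a log axis after adding 0.01. *Tbx18* was lower in IM4 than in IM3 and lower in IM5 than in IM2, while *Tbx5* was lower only in the second pair.

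Genes that respond to the added factors were read beside these results. Of 9 Wnt targets, 3 passed the adjusted p as higher in IM4 than in IM3, *Axin2* (0.46), *Lef1* (0.44) and *Nkd1* (0.77), and 4 in IM5 than in IM2, *Notum* (1.08), *Nkd1* (0.81), *Axin2* (0.64) and *Sp5* (0.60). At the same criterion 0.221% of all genes were higher in IM4 and 1.5% in IM5. No Wnt target was DE, and all but *Lef1* were named after their values were seen. Of 6 mesothelial genes, 4 passed the adjusted p as lower in IM4, beside 0.811% of all genes, *Msln* (-1.14), *Upk1b* (-0.55), *Lrrn4* (-0.41) and *Krt19* (-0.37), and 5 in IM5, beside 2.72%, *Upk3b* (-1.18), *Upk1b* (-1.06), *Msln* (-1.01), *Wt1* (-0.65) and *Lrrn4* (-0.57), of which *Upk3b* and *Upk1b* were DE in IM5 and none in IM4. *Msln*, *Upk1b* and *Lrrn4* were likewise named after their values were seen. The summed mesothelial level was 922.3 to 987.3 TPM in IM3, 707.9 to 749.0 in IM4, 401.9 to 471.0 in IM2 and 329.9 to 345.8 in IM5, and its part in the cardiac result was not tested. The sum of 21 skeletal muscle genes was 21.8 to 52.6 TPM in IM3 and 20.3 to 33.8 in IM4, overlapping between the groups, with the regulators *Myod1* and *Myog* at mean levels of at most 0.21 TPM in every group. The 6 genes of adult red blood cells summed to 11.7 to 91 TPM in ESC, M, IM3 and IM4 and to 1.57 to 4.54 TPM in the other 5 groups. Both CHIR99021 pairs lie within 1 side of that division, with 21.3 to 74.4 TPM in IM3 and 30.8 to 72.1 in IM4. The skeletal muscle gene *Myh4*, named after its values were seen, changed along the same division. It passed the adjusted p in EpiSC against ESC (-6.54), M against EpiSC (6.82), IM2 against IM3 (-7.93) and iSLC against IM3 (-8.01). It was DE in none of them, and did not pass in IM1 against M (-2.52) or IM3 against IM1 (2.08). Other skeletal muscle genes were divided. Of 18 tested, *Tnnt3* (4.05) and *Atp2a1* (2.71) were DE higher in M than in EpiSC, beside 6.79% of all genes. *Actn3* (-1.9), *Mylpf* (-1.72) and *Ryr1* (-1.07) were DE lower, beside 7.72%. *Atp2a1* and *Myh1* had the signs of *Myh4* in all the comparisons just named, though *Myh1* never passed the adjusted p. *Atp2a1*, *Myh1* and *Ryr1* were likewise named after their values were seen. The 5 genes of primitive red blood cells were higher in sum with CHIR99021 in both pairs, at 97.1 to 119.7 TPM in IM3 and 130.3 to 212.8 in IM4, and at 6.32 to 7.4 in IM2 and 13.6 to 16.4 in IM5. Of these *Hbb-bh1* (1.26) and *Hba-x* (1.25) were DE higher in IM5 than in IM2, beside 0.0432% of all genes, and none of the 5 passed the adjusted p in IM4 against IM3. The part of these cells in the cardiac result was not tested.

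The proportion of the alpha and beta heavy chains differed among the libraries. *Myh6* made up 64.6%, 63.9% and 69.4% of the summed *Myh6* and *Myh7* TPM in the IM3 libraries, above the 35.2%, 52.8% and 49.5% of IM4. It made up 21.9%, 27.1% and 21.3% in IM1, 23.2%, 39.9% and 31.2% in IM2 and 11.7%, 28.4% and 11.6% in IM5. The difference between IM5 and IM2 was -14.2 percentage points (exact permutation test, two-sided, p = 0.2, n = 3 per group, with 0.1 the smallest p possible), that between IM2 and IM1 was 7.98 points (exact p = 0.2) and that between IM1 and M 8.79 points (exact p = 0.3). Adjusted over these 3 tests (Benjamini-Hochberg), each exact p was 0.3. The share was highest in iSLC, at 87.1% to 91.4%. *Myh6* and *Myh7* are neighboring paralogs on chromosome 14 with similar sequence, so their split rests on how RSEM assigned shared reads, and 13.3% of the *Myh7* exon bases overlap transcripts on the other strand, *Mhrt* among them.

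**Figure D4:**
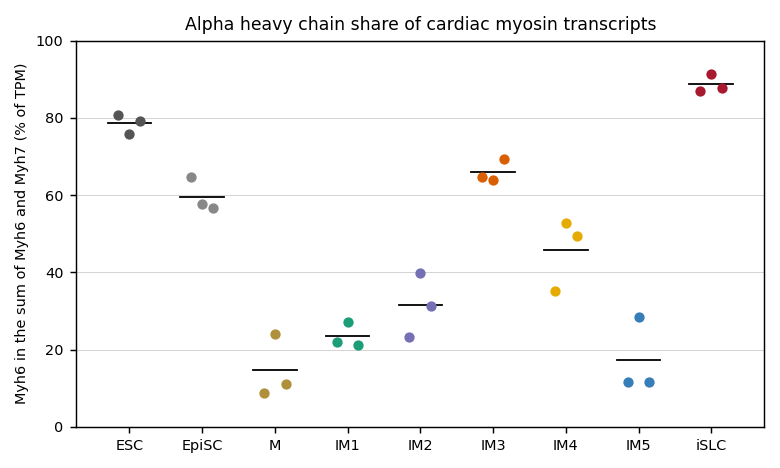
Percentage of *Myh6* in the summed TPM of *Myh6* and *Myh7* in each library (points) with group means (bars). The IM3 libraries lie between 63.9% and 69.4%, above all libraries of the other IM conditions.

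Most of the cardiac muscle genes rose between M and IM1, when bFGF fell, BMP4 rose and LY294002 was withdrawn. Of the 10, 8 were DE and higher in IM1, beside 9.72% of all genes. *Tnnt2* rose most, from 0.76, 0.45 and 0.47 TPM to 41.56, 52.84 and 47.60 (log2 fold change 6.01, SE 0.19, edgeR adjusted p = 3.48e-20). *Myh6* rose by 4.68, *Myh7* by 4.20, *Myo18b* by 3.81, *Myl7* by 3.56, *Actc1* by 2.90, *Hcn4* by 2.71 and *Ldb3* by 1.80. *Myl3* (2.50) passed the adjusted p and the 2-fold minimum but not the count minimum, and *Hrc* (0.81) passed the adjusted p without reaching 2-fold. The median of the 10 was 3.23 and that of all genes 0.002. Of the 83 further cardiac genes 31 were DE higher, among them the myosin-binding protein *Mybpc3* (7.24), *Gata5* (6.02), the fetal troponin *Tnni1* (5.89), *Tbx18* (5.84) and *Popdc2* (5.79), and 2 were DE lower, *Synpo2l* (-1.44) and *Hcn2* (-1.11), beside 5.94% of all genes. The 6 genes of adult red blood cells summed to 42.4 to 80 TPM in M and 3.06 to 4.54 in IM1.

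Several of the genes were already present before that step. *Myo18b* had its highest level of all 9 groups in ESC (2.14, 1.89 and 1.75 TPM), and *Actc1* was higher in EpiSC (20.59 to 22.77 TPM) than in IM5. *Myl3*, also a slow-muscle light chain, was at 5.42 to 5.92 TPM in ESC and 5.83 to 6.17 in EpiSC and fell to 0.49 to 0.80 in M (log2 fold change -3.70, edgeR adjusted p = 9.07e-13). *Myh6* fell with it, from 0.89 to 1.06 TPM in EpiSC to 0.04 to 0.07 in M (-4.15, adjusted p = 1.04e-08), as did *Actc1* (-2.12) and *Myh7* (-1.43). These 4 of 10 DE lower genes compare with 7.72% of all genes, and 0 of the 10 were DE higher, beside 6.79% of all genes. The nearest was *Myl7* (1.11, adjusted p = 0.017). The count minimum averages all libraries, and *Myl3* met it only with IM3 included, where its mean normalized count was 258.9. The DE call of *Myl3* in this step is therefore not free of the selection. *Myo18b* (-2.19) and *Ldb3* (-0.91) passed the adjusted p as lower but were not DE. Over the same step 15 of the 83 further cardiac genes were DE higher, beside 6.79% of all genes, and 7 were DE lower, beside 7.72%. The largest DE rises were in the factors *Isl1* (7.11), *Tbx20* (6.11), *Hand1* (5.52), *Tbx3* (5.38) and *Hand2* (5.07). Of 21 cardiac transcription factors 10 were DE higher, beside 6.79% of all genes, and 0 DE lower, beside 7.72%. By adjusted p alone 16 were higher and 4 lower, *Nkx2-5* (-2.17, adjusted p = 4.94e-05) among the latter. Much of the transcriptome changed at this step. With the count minimum but no fold minimum, 9645 of all 20839 genes were called, both directions together. Between ESC and EpiSC *Actc1* rose from 0.54 to 0.77 TPM to 20.59 to 22.77 (4.94, adjusted p = 2.03e-14) and *Myh7* rose (1.42), beside 3.75% of all genes DE higher, while *Myo18b* fell (-1.83), beside 4.32% DE lower. The red blood cell sum was 1.57 to 2.31 TPM in EpiSC, so both steps cross the division in those genes.

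Retinoic acid and Activin A together (IM2 against IM1) parted the genes. Of the 10, 4 were DE and lower in IM2, beside 1.56% of all genes, and none was DE higher, beside 1.94%. *Myo18b* fell most, from 1.36, 1.68 and 1.31 TPM to 0.34, 0.46 and 0.33 (log2 fold change -1.93, SE 0.19, edgeR adjusted p = 7.47e-09). *Hcn4* fell by 1.82 on the log2 scale, *Hrc* by 1.41 and *Myh7* by 1.35. *Actc1* (-0.05, adjusted p = 0.858) and *Myl3* (0.14, adjusted p = 0.65) did not pass. The further cardiac genes moved in both directions. *Tbx5* (3.17), the L-type calcium channel *Cacna1c* (1.40) and *Nebl* (1.27) were DE higher, and *Irx4* (-2.70), *Kcnj5* (-1.81), *Hopx* (-1.57), *Acta1* (-1.56) and *Myom1* (-1.23) were DE lower. *Acta1* lost its call without any one library of IM2 and without replicate 1 of IM1 (edgeR adjusted p from 0.0133 to 0.0243).

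With retinoic acid alone (IM3 against IM1) the values of the 10 genes, given as description, were positive for *Myh6* (2.41), *Myl3* (1.74), *Actc1* (1.47) and *Myl7* (1.37), and lay between -0.45 for *Myo18b* and 0.85 for *Ldb3* for the others. Of the 83 further cardiac genes 15 were DE higher, beside 2.62% of all genes, led by *Tbx5* (4.44), *Tbx18* (2.98), *Nebl* (2.14), *Unc45b* (2.14) and *Slc8a1* (1.86), and 6 were DE lower, beside 3.72%, led by *Isl1* (-2.35), *Tmod1* (-1.99), *Ankrd1* (-1.92), *Hand1* (-1.63) and *Hopx* (-1.22). With Activin A beside retinoic acid (IM2 against IM3) all 10 values were negative, from -3.29 for *Myh6* and -2.25 for *Hcn4* to -0.08 for *Tnnt2*. Of the further genes 14 were DE lower in IM2, beside 1.34% of all genes, with *Unc45b* (-2.41), *Tbx18* (-2.29) and *Smyd1* (-2.0) in front, and 4 were DE higher, beside 2.46%, *Ankrd1* (2.18), *Tmod1* (1.71), *Isl1* (1.42) and *Cacna1c* (1.05). The comparisons share the IM3 libraries with each other and with IM4 against IM3. Both also cross the division in red blood cell genes, so condition and division cannot be told apart there.

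In iSLC the genes went separate ways. *Tnnt2* stood at 131.62, 126.92 and 131.42 TPM, above every other library of the study, and *Hrc* at 9.25, 8.0 and 7.49, also above every other library. *Myl7* stood at 5.00, 7.33 and 5.19 TPM, *Myl3* at 0.38, 0.67 and 0.29 and *Hcn4* at 0.30, 0.36 and 0.34. Against IM3 the log2 fold changes, given as description, were -4.90 for *Myl3*, -4.51 for *Myl7*, -4.02 for *Myh7*, -3.91 for *Hcn4*, -3.69 for *Actc1* and -1.82 for *Myh6*. They were 1.86 for *Hrc*, 0.93 for *Tnnt2*, 0.58 for *Ldb3* and -0.02 for *Myo18b*. The red blood cell sum was 1.65 to 2.18 TPM in iSLC, so this comparison crosses the division too. The introduced factors, the change of medium, time and sorting cannot be told apart in it.

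**Figure D5:**
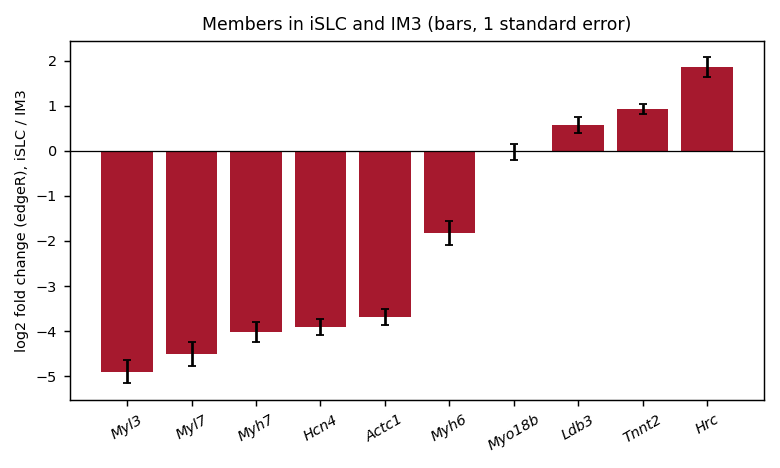
Log2 fold change of each gene in iSLC over IM3, with its standard error (bars). *Hrc*, *Tnnt2* and *Ldb3* lie above 0, *Myo18b* at 0 and the other 6 genes below it.

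The wider list was divided in the same comparison, with 11 of 83 genes DE higher, beside 10.3% of all genes, and 22 DE lower, beside 8.92%. Among those that rose were the T-type calcium channel *Cacna1g* (3.72), *Hopx* (3.05), *Tbx2* (2.91) and *Ankrd1* (2.87), and the largest falls were in *Hand1* (-5.67), *Irx4* (-5.50), *Acta1* (-5.19), *Nebl* (-4.40) and *Hey1* (-4.37). Of 9 smooth muscle genes 6 were DE higher, beside 10.3% of all genes, and all 9 passed the adjusted p as higher. No share of all genes at the adjusted p alone is given for this comparison. The summed smooth muscle level was 3195 to 3270 TPM in iSLC and 1364 to 1646 in IM3, and its part in the *Tnnt2* level was not tested. The introduced factors marked the group, with *Nr5a1* at a mean of 93.8 TPM and *Dmrt1* at 213.2 TPM, against at most 0.13 and 21.6 TPM in the other groups. The Sertoli hormone gene *Amh* stood at a mean of 0.56 TPM in iSLC and 0.24 to 1.12 TPM elsewhere, and the intermediate mesoderm factor *Pax2* at no more than 0.33 TPM in any group.

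Genes outside the list were compared with the pattern of the 10. The pattern was the mean z-score of log2(CPM + 1) over the 27 libraries, and likeness was Pearson's r across them, given as description because libraries of a group share their condition. The 10 selected genes had r with their own mean from 0.402 (*Hrc*) to 0.916 (*Myh6*). The 10 other genes with the highest r were *Sphkap* (0.904), *Fbxo32* (0.894), *Strip2* (0.883), *Xirp1* (0.877), *Unc45b* (0.873), *Aldh1a2* (0.870), *5430431A17Rik* (0.868), *Thbs4* (0.863), *Asb2* (0.860) and *Tent5d* (0.857). *Xirp1* and *Unc45b* are on the wider cardiac list. *Aldh1a2*, which encodes an enzyme of retinoic acid synthesis, was at a mean of 13.3 TPM in IM3, 4.63 in IM4, 1.76 in IM2 and 1.31 in IM5. *Asb2*, a ubiquitin ligase adaptor of muscle, was at 1.98, 0.70, 0.26 and 0.04 TPM in the same order.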

How the data were processed

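RNA-seq was measured in 27 libraries. The authors trimmed reads with Cutadapt 1.9.1, aligned them to GRCm38 with STAR and the Ensembl release 86 annotation, and deposited RSEM 1.3.0 expected counts, TPM, FPKM and effective lengths per gene; strand use is not given in the sources used here. Expected counts were rounded. Genes passing filterByExpr (20839) were scaled by TMM and tested over all 9 groups with edgeR 4.0.16 (glmQLFit, glmQLFTest), with Benjamini-Hochberg adjustment. The DE criteria were an adjusted p of at most 0.01, at least 2-fold and, both over all libraries and in a compared group, 100 or more normalized counts on average. The fits were tested on simulated data. The 10 members and all lists were chosen with earlier results of these data known. Named were the members, the largest 5 rises and 5 falls among DE list genes without overlap, 8 cardiac factors, up to 3 genes of each other list by mean TPM and the 10 genes most alike in pattern. Alternatives were DESeq2 1.42.0, its size factors, effective-length offsets, filters, thresholds, a replicate block, leave-one-out fits and FPKM as the deposited unit in place of TPM. Deviations of same-numbered libraries were little correlated, so replicates were not paired, though a shared batch is not excluded. Symbols were matched through GENCODE M21 on GRCm38 for 48349 genes.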

Additional observations from a re-analysis of the deposited data

Results flagged for a closer look

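*Tbx5* was the only tested gene of the cardiac list that met all DE criteria for a CHIR99021 effect differing with Activin A, with an interaction of -1.07 on the log2 scale (SE 0.16, edgeR adjusted p = 0.000666). It was lower with CHIR99021 in IM5 against IM2 (-1.10) and not distinguishable in IM4 against IM3 (-0.03, adjusted p = 0.965). *Cryab* passed the adjusted p of the interaction alone (0.93, adjusted p = 9.14e-05). Without replicate 1 of IM5 the interaction was -1.0 (adjusted p = 0.00179), and without replicate 3 of IM3 it was -1.0 (adjusted p = 0.0034), just short of the 2-fold minimum in both fits. Groups of 3 libraries were not searched for single outlying libraries.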

How the results depend on the processing

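In comparisons that hold neither IM3 nor IM4, counts in this section cover all 93 tested genes of the cardiac list, the 10 selected ones included. In comparisons that hold either group they cover only the 83 further genes, so counts of these kinds cannot be set against each other. There were 41 genes DE in IM1 against M, of 93, and 33 in iSLC against IM3, of 83. The number DE moved by at most 1.5 times with DESeq2's size factors or Wald test, the effective length offset, no low-count filter, only the groups compared and an adjusted p under 0.05, in all 10 comparisons. With no fold minimum the counts became 39 (from 12) in IM2 against IM1, 27 (from 11) in IM5 against IM2, 11 (from 3) in IM4 against IM3, 41 (from 21) in IM3 against IM1, 37 (from 18) in IM2 against IM3 and 2 (from 1) in the interaction of CHIR99021 and Activin A. With no minimum of normalized read counts they became 39 (from 21) in EpiSC against ESC, 51 (from 26) in M against EpiSC, 7 in IM4 against IM3, 32 in IM3 against IM1, 29 in IM2 against IM3 and 53 in iSLC against IM3, since more genes of low counts can then be called. With 1 library left out, the counts ranged from 20 to 23 in EpiSC against ESC, 26 to 27 in M against EpiSC, 41 to 42 in IM1 against M, 11 to 14 in IM2 against IM1, 8 to 14 in IM5 against IM2, 1 to 5 in IM4 against IM3, 19 to 23 in IM3 against IM1, 16 to 18 in IM2 against IM3, 33 to 34 in iSLC against IM3 and 0 to 2 in the interaction. Over all genes, IM4 against IM3 had 21 DE genes and 11 without replicate 1 of IM3.

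Equal replicate numbers were not treated as a pairing, and whether they mark a shared batch is not known. Deviations of same-numbered libraries from their group means had a mean correlation of 0.002 over all pairs of groups, beside -0.001 for different numbers. For IM4 and IM3 the mean was 0.066, with values from -0.005 to 0.109. Low correlations do not exclude a shared batch. With a block term for replicate number, 10 genes in place of 11 were DE in IM5 against IM2, 3 in IM4 against IM3 and 1 in the interaction, and the other counts were as without it.

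Of 120 refitted values of the 10 genes in IM5 against IM2, 117 kept their direction and side of the criteria. *Myo18b* ranged from -0.04 (without replicate 1 of IM2) to 0.21 with 1 library left out. In IM2 against IM1, *Myl3* ranged from -0.04 to 0.39 and *Actc1* from -0.18 to 0.09 in such fits, none of them DE. *Myh6* became DE there (-1.16) without replicate 2 of IM2, as did *Ldb3* (-1.01). In FPKM, all 10 genes had the same highest group as in TPM. Of the 10 genes most alike in pattern, 2 remained when only the 15 IM libraries were used. Low levels (*Ldb3*, *Hrc* and *Myo18b* under 1 TPM in several groups) and 3 libraries a group limit the precision, and the tissue markers above were not entered in any fit.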
